A study of Mus musculus with 4 samples.

Results

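The sulfotransferases described here are 8 genes whose products place sulfate groups on heparan sulfate: Ndst1, Ndst2, Ndst3, Ndst4, Hs3st1, Hs3st2, Hs3st4 and Hs3st5. They were picked by symbol from the 32285 genes of the deposited count matrices, with their levels across cell types already known and with the higher Ndst4 level in oligodendrocytes (OLs) of nude and BALB/c mice already known. Levels across cell types, and that difference, are therefore given as a description without a test. Single nuclei were sequenced from the lateral septum (LS), a forebrain region made mostly of inhibitory neurons, of male mice 6 to 8 weeks old. There were 4 libraries, each pooled from 3 mice. A pair of libraries, C57J 1 and C57J 2, came from C57BL/6JNifdc mice, 1 from BALB/c nude mice, which lack T cells and have a BALB/c background, and 1 from BALB/c mice. C57J 1 was labelled batch 1 and the other 3 libraries batch 2, so that batch and strain are partly confounded.

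Heparan sulfate is a sugar chain carried by proteins of the cell surface and the extracellular matrix, where it binds growth factors, morphogens and adhesion proteins. Its sulfation is written in steps. The N-deacetylase/N-sulfotransferases, encoded by the Ndst genes, act first on the growing chain, and the later epimerase and O-sulfotransferases work mainly on the stretches they have modified. The glucosaminyl 3-O-sulfotransferases, encoded by the Hs3st genes, act last and add a rare sulfate that creates binding sites for particular proteins, antithrombin being the known partner of the product of the Hs3st1 enzyme.

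After filtering, C57J 1 kept 12815 nuclei, C57J 2 12487, nude 12945 and BALB/c 10866, with median UMI counts (unique molecular identifiers, each standing for 1 captured RNA molecule) of 5337, 4078, 4512 and 8380.5. BALB/c was thus the deepest library. Each pair of libraries shared between 29 and 63 cell barcodes. Levels are given as CPM, the UMIs of a gene per 1000000 UMIs of all genes in the nuclei of 1 cell type and 1 library, and sets of 4 values are in the order C57J 1, C57J 2, nude, BALB/c. Nuclei were grouped by clustering and named from marker genes, which gave 12 cell types with at least 20 nuclei in every library.

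All 8 members are protein-coding genes in the mm10 genome. Ndst3 (chromosome 3, 123526166 to 123690853, minus strand) and Ndst4 (chromosome 3, 125404076 to 125728899, plus strand) lie 1713 kb apart. Hs3st2 (chromosome 7, 121391859 to 121501770, plus strand) and Hs3st4 (chromosome 7, 123982869 to 124398989, plus strand) lie 2481 kb apart. The others are Ndst1 (chromosome 18, 60684494 to 60748650), Ndst2 (chromosome 14, 20723730 to 20734562), Hs3st1 (chromosome 5, 39613935 to 39755475), all on the minus strand, and Hs3st5 (chromosome 10, 36506814 to 36834397, plus strand). Among the annotated transcripts of the 28 pairs of members, only Ndst3 and Ndst4 shared stretches of 30 identical bases, with 66 such words. Reads could match both genes over those bases, and whether any counts were affected was not tested.

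Some members share bases with another gene, and the sources used here do not say whether the counting used strand. The first part of Hs3st2 lies inside the antisense gene Gm36736 (chromosome 7, 121314810 to 121393101) and its last part inside the antisense gene 4933432K03Rik (chromosome 7, 121468844 to 121609334). The start of Hs3st4 lies inside the antisense gene Gm27040 (chromosome 7, 123971046 to 123983454), and Rps14, on the opposite strand, overlaps the start of Ndst1. Reads from these places are uncertain between the genes.

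The start regions of Hs3st2 and Hs3st4 are shown because both of these windows, 250 bases before to 50 after the gene start of RefSeq (GRCm38.p6), sit within an annotated antisense gene. The Hs3st2 window is chr7:121392046-121392345 and the Hs3st4 window chr7:123982578-123982877, both on the plus strand and written 5′ to 3′. Capitals mark TGACGTCA, the palindromic cyclic AMP response element.
Hs3st2: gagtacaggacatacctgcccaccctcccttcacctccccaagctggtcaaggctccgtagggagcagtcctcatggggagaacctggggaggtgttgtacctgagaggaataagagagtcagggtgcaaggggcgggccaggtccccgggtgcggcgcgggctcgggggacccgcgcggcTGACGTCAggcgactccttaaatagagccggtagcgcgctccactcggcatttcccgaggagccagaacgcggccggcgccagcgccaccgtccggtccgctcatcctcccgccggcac
Hs3st4: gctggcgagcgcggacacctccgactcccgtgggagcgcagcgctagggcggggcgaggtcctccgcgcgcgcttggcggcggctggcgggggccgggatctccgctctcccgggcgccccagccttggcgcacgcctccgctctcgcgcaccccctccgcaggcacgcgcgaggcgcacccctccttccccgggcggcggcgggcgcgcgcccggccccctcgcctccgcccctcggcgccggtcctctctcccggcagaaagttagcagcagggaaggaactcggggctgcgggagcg

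The Hs3st2 window held TGACGTCA starting 69 bases before the gene start, and 27 CG pairs. TGACGTCA occurs in 1.79% of the 32851 promoter windows of the reference table, and the motif was chosen after looking at the sequences. The Hs3st4 window held 47 CG pairs and no TGACGTCA, against a median of 7 CG pairs over all windows. RefSeq start windows were at hand for 6 of the 8 members, without Ndst1 and Ndst4.

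Among the N-deacetylase/N-sulfotransferases, Ndst1 and Ndst2 were found in every class at low levels, while Ndst3 and Ndst4 varied widely. Ndst1, the broadly used member, had 35.0, 36.1, 37.0 and 42.2 CPM in LS neurons. In OLs it had 49.3, 46.0, 55.1 and 52.3 CPM. Its mean level ranged from 31.9 CPM in neuroblasts to 60.1 CPM in dividing progenitors, and each class overlapped with the next in that order.

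Ndst2, best known for the heavily sulfated heparin of mast cells, was highest in microglia, the immune cells of the brain, with 22.0, 22.1, 24.9 and 25.8 CPM. The next class, astrocytes, had 10.9, 15.8, 9.85 and 13.9 CPM, and the libraries of the 2 classes did not overlap. The microglia values rest on 13, 12, 12 and 21 UMIs, and their exact Poisson intervals overlapped with those of astrocytes in every library. LS neurons had 8.95, 8.44, 7.73 and 8.56 CPM. The Ndst2 gene spans 10.8 kb against 64.2 kb for Ndst1 and 325 kb for Ndst4. Per kb of annotated gene, the mean Ndst2 level in LS neurons was 0.777 CPM per kb, beside 0.586 for Ndst1, 0.604 for Ndst3 and 0.349 for Ndst4. In CPM Ndst2 was the lowest of the Ndst genes there, and whether UMI counts scale with gene length was not tested.

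Ndst3 encodes an isoform with high deacetylase and low sulfotransferase activity. Among the named classes with at least 20 nuclei in every library, it was highest in neuronal classes, but not high in all of them. In this order Slc17a7 glutamatergic neurons came first at 156, 204, 144 and 74.3 CPM, followed by LS neurons at 85.9, 79.7, 109 and 123 CPM. Neuroblasts had 82.7, 79.2, 77.9 and 87.2 CPM and Lhx6 GABAergic neurons 68.9, 82.9, 64.4 and 61.1 CPM. These 4 classes overlapped with their neighbours in the order, and the lowest of them did not overlap with dividing progenitors, the fifth class, at 35.6, 31.3, 58.6 and 30.9 CPM. Striatal neurons had 24.1, 74.6, 20.7 and 16.5 CPM, and cholinergic neurons were lowest at 13.8, 8.60, 19.3 and 2.30 CPM. Mural cells, a class of vessels with too few nuclei for this order, had 538, 318, 69.1 and 18.8 CPM. Their C57J values were thus above those of Slc17a7 neurons, and their nude and BALB/c values below. The mural values rest on 15, 17, 1 and 1 UMIs. Their exact Poisson intervals overlapped with those of Slc17a7 neurons in every library except C57J 1.

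Ndst4, whose enzyme has little deacetylase activity in isolation, had its highest mean level in Lhx6 GABAergic neurons, at 208, 309.8, 269 and 127 CPM. LS neurons held 112, 115, 117 and 110.4 CPM, the most even set of values of any member that exceeded 100 CPM in a class. OLs stood between these classes by their mean but were split by strain, as described below. Striatal neurons, the other large inhibitory class, had only 10.1, 10.3, 17.5 and 5.21 CPM. Astrocytes had 17.5, 25.2, 51.1 and 13.0 CPM, the nude library being highest in each of the 3 astrocyte clusters, with 47.8, 55.1 and 63.5 CPM.

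Among the 3-O-sulfotransferases and over the named classes, Hs3st1 had its highest levels in the OL lineage, and Hs3st2, Hs3st4 and Hs3st5 had theirs in neuronal classes. Hs3st1 had 84.3, 95.4, 60.0 and 86.5 CPM in OLs, 33.0, 27.9, 16.1 and 21.7 CPM in newly forming OLs, and 14.1, 12.6, 15.8 and 7.58 CPM in OPCs (OL precursor cells). Every OL library was above every library of the other classes of the lineage. The newly forming OL values rest on 10, 7, 2 and 6 UMIs, and their exact Poisson intervals overlapped with those of OPCs in every library. The other named classes had mean levels between 1.32 and 11.6 CPM, and single neuron clusters are described below.

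Hs3st2 marked LS neurons, with 265, 249, 269 and 278 CPM. The next class, Lhx6 GABAergic neurons, had 75.7, 127, 27.1 and 62.3 CPM, and no library of it reached the lowest LS library. Striatal neurons held 15.5, 16.5, 25.9 and 15.1 CPM. In CPM it was below Hs3st4 in LS neurons. Per kb of annotated gene it was the highest member there, at 2.41 CPM per kb, beside 0.777 for Hs3st4, 0.388 for Hs3st5 and 0.0641 for Hs3st1. Whether UMI counts scale with gene length was not tested, so the order per kb is a description only.

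Hs3st4 had the highest level of any member in CPM. Cholinergic neurons had 694, 494, 667 and 681 CPM, and the next class, Slc17a7 glutamatergic neurons, had 271, 283, 379 and 449 CPM, without overlap. LS neurons had 339, 297, 309.6 and 348 CPM and neuroblasts 245, 215, 272 and 412 CPM. Cholinergic neurons were thus first for Hs3st4 and last of the 12 classes for Ndst3, Hs3st1, Hs3st2 and Hs3st5.

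Hs3st5 was highest in 4 of the neuronal classes. Slc17a7 glutamatergic neurons had 144, 305, 201 and 85.2 CPM and striatal neurons 139, 179, 178 and 198 CPM. LS neurons had 128, 111, 137 and 132 CPM and Lhx6 GABAergic neurons 105, 133, 158 and 98.1 CPM. Lhx6 GABAergic neurons did not overlap with the next class, neuroblasts, at 72.0, 79.2, 58.4 and 53.2 CPM.

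**Figure D1:**
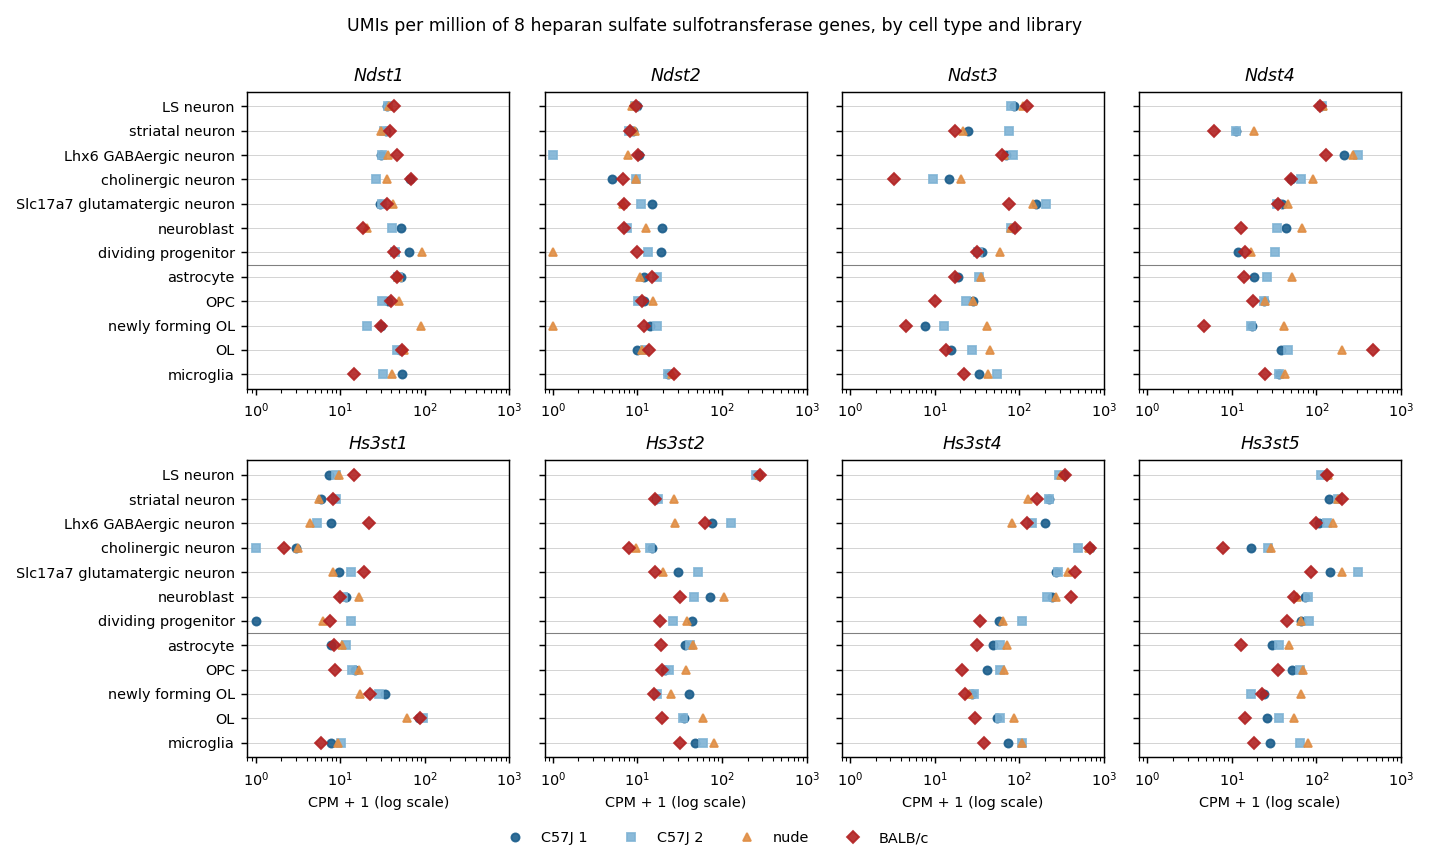
Level of the 8 members (1 panel each) in the 12 cell types and 4 libraries, as CPM + 1 on a log axis, with 1 point per library. Hs3st2 stands out in LS neurons at 249 to 278 CPM, Hs3st4 in cholinergic neurons at 494 to 694 CPM, Hs3st1 in OLs, and Ndst4 in OLs separates into 36.6 and 45.0 CPM in C57J against 201 in nude and 467 in BALB/c.

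Within neurons, several members were high together in the same cluster. Besides the named classes there were 16 LS neuron clusters and 7 clusters of other neurons with at least 20 nuclei in every library, and these are called by number and leading genes. Since the clusters were drawn from the same nuclei, their levels are a description. The 8 members and the other genes of the heparan sulfate pathway list were left out when the clusters were made.

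The LS neuron cluster 3, led by Cntnap5b and Col25a1, had the highest Ndst4 level, with 485, 608, 494 and 448 CPM. It also had 183, 182, 183 and 196 CPM of Ndst3 and 688, 715, 655 and 677 CPM of Hs3st4. The LS neuron cluster 16, led by Cpa6 and Mctp2, was near its opposite, with 8.31, 10.4, 13.6 and 3.54 CPM of Ndst4 and 22.8, 28.1, 35.2 and 13.3 CPM of Hs3st4. Its Hs3st2 level was 401, 379, 414 and 381 CPM, next to that of cluster 2, led by Ano2, at 399, 373, 432 and 414 CPM. Cluster 2 likewise had little Hs3st4, at 34.7, 26.5, 37.5 and 28.5 CPM.

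Hs3st4 was highest outside the LS clusters, in cluster 15 led by Ntng1 and Onecut2, at 1348, 1514, 1667 and 1408 CPM. The LS neuron cluster 22, led by Cpa6 and Slit2, followed at 909, 938, 833 and 848 CPM. Cluster 15 was also the highest neuron cluster for Ndst3, at 295, 292, 306 and 255 CPM, and had 28.0 CPM of Hs3st2 on average over the libraries. Hs3st5 was highest in LS neuron cluster 28, led by Phex, at 452, 469, 564 and 479.5 CPM, and did not overlap with cluster 30, led by Adamtsl1, at 300.1, 299, 407 and 331 CPM.

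Hs3st1 had 33.0, 35.3, 24.2 and 29.1 CPM in cluster 18, led by Klhl1, and 32.5, 43.0, 20.8 and 29.7 CPM in cluster 26. These levels were near those of newly forming OLs, at 33.0, 27.9, 16.1 and 21.7 CPM. They were below every OL library, of which nude was lowest at 60.0 CPM. The leading genes of cluster 26 begin with Gm42418 and include abundant housekeeping transcripts such as Ubb and Gapdh. Its nuclei were shallow, at a median of 1887 UMIs, and uneven between libraries, at 89, 368, 300 and 54. For Hs3st4 the mean of the highest neuron cluster was 1484 CPM and for Ndst2 10.2 CPM.

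**Figure D2:**
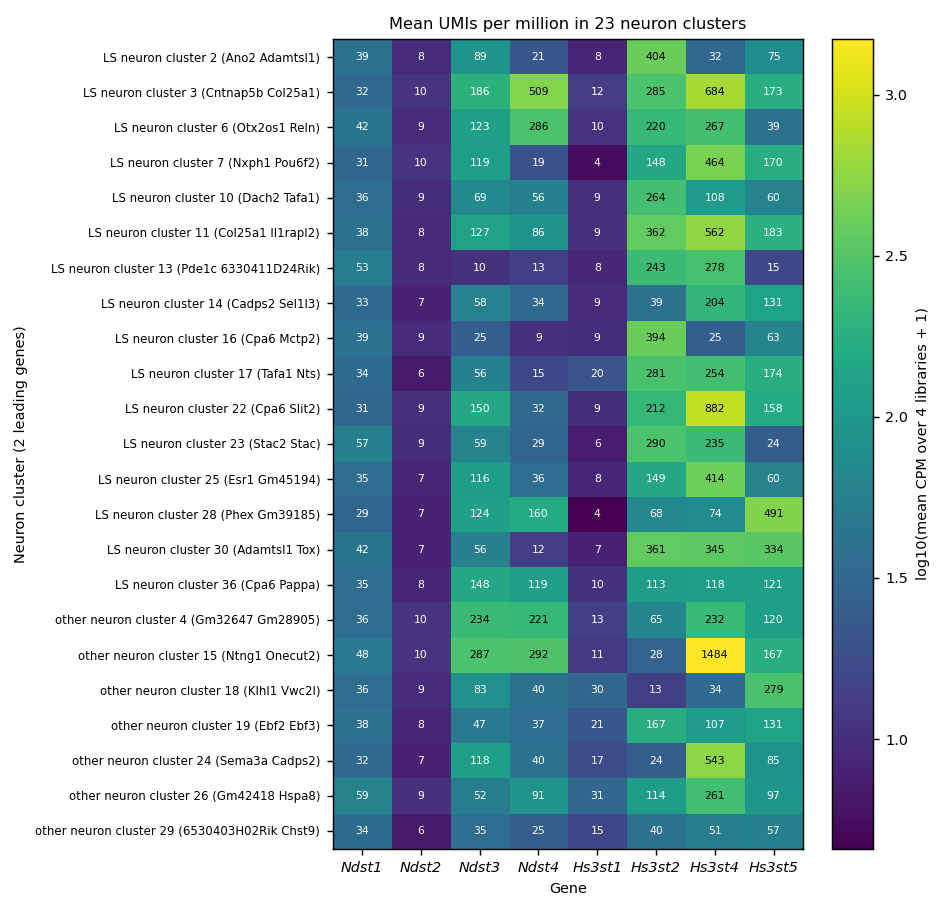
Mean level over the 4 libraries of the members (columns) in the 16 LS neuron clusters and 7 other neuron clusters (rows), with the CPM printed in each field and the colour on a log10(CPM + 1) scale. Ndst4 peaks in LS cluster 3, Hs3st2 in LS clusters 2 and 16, Hs3st4 in the other neuron cluster 15 and LS cluster 22, and Hs3st5 in LS cluster 28.

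Over 34 classes and clusters, counting the 23 neuron clusters and the named classes other than LS neurons, the genes most like each member were found by Pearson correlation of mean log2(CPM + 1) among 13748 genes. The points share libraries and differ in depth, so that the correlations are a description. The genes most like Hs3st2 were its antisense neighbours Gm36736 (r = 0.951) and 4933432K03Rik (r = 0.938), both of which overlap it, and then Myo5b (r = 0.905). The antisense genes had far fewer UMIs in the tested classes, 2948 for Gm36736 and 3847 for 4933432K03Rik.

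The genes most like Hs3st1 were Gal3st1 (r = 0.711), the enzyme that makes the myelin lipid sulfatide, then Cdk5 (r = 0.710) and Nceh1 (r = 0.706). For Ndst2 they were Lag3 (r = 0.804), Apobec1 (r = 0.802) and Hfe (r = 0.801), each with its highest level in microglia like Ndst2 itself. For Ndst3 they were Acbd6 (r = 0.748), Lrrc45 (r = 0.740) and Ogfod1 (r = 0.738), and for Ndst4 Cd59a (r = 0.669), Akap7 (r = 0.619) and Cygb (r = 0.614). Hs3st4 was most like Isl1 (r = 0.707), a homeobox factor of cholinergic and striatal neurons, followed by Tert (r = 0.689) and Esyt3 (r = 0.688). Hs3st5 was most like Rab3c (r = 0.714), Spock3 (r = 0.706) and Gm26854 (r = 0.701), and Ndst1 like Aplp2 (r = 0.727), Cpd (r = 0.684) and Mat2a (r = 0.648). Between members the highest correlation was that of Ndst3 with Hs3st5 (r = 0.656), and Ndst3 with Ndst4 reached r = 0.571.

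In OLs, the myelin-forming cells, Ndst4 was higher in nude and BALB/c mice than in both C57J libraries. It had 115 UMIs in 1261 nuclei of C57J 1, 132 in 1413 of C57J 2, 411 in 1122 of nude and 2790 in 1477 of BALB/c. These gave 36.6, 45.0, 201 and 467 CPM, with exact Poisson 95% intervals, which cover counting error only, of 30.2 to 43.9, 37.6 to 53.3, 182 to 221 and 450.3 to 485. The C57J libraries overlapped within counting error and the other libraries overlapped with none. Nude was 4.92 times the C57J mean of 40.8 CPM, BALB/c 11.5 times it, and BALB/c 2.33 times nude.

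The fitted log2 fold change was 3.12, and it was 2.30 without BALB/c and 3.66 without nude. The pooled spread within the 2 groups was 0.63 on the log2(CPM + 1) scale, which comes mostly from the distance between nude and BALB/c. Batch 1 holds only C57J 1, and within batch 2 the fitted value was 2.99. The difference was chosen for its size, so no p is given.

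The higher level was spread over OL nuclei. The share of OL nuclei with a Ndst4 UMI was 7.69% for C57J 1, 7.93% for C57J 2, 26.8% for nude and 68.2% for BALB/c. With every nucleus thinned to 1000 UMIs the shares were 2.90%, 4.53%, 16.9% and 34.1%. At least 2 Ndst4 UMIs were found in 12, 10, 71 and 663 nuclei. The shares of microglia with a Ndst4 UMI, for comparison with a class of immune origin, were 6.40%, 4.46%, 5.79% and 6.51%, at median depths of 1752, 1312, 1409 and 2658 UMIs against 2326, 1901, 1680.5 and 3785 in OLs. The C57J shares in OLs were thus near those of microglia, and the nude and BALB/c shares were well above them.

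Clustering at a finer resolution divided OLs into 3 clusters, and in each of them nude was above both C57J libraries and BALB/c was above nude. In cluster 1, led by Prr5l, Ndst4 had 30.2, 46.3, 181 and 383 CPM. In cluster 9, led by 4930420G21Rik, it had 67.3, 55.5, 336 and 629 CPM, and this cluster held 43.4% of the OL nuclei of BALB/c against 13.2% to 14.3% in the other libraries. In cluster 41, led by the myelin gene Mobp and by Sytl2, it had 30.5, 32.4, 56.3 and 173 CPM, the nude value resting on 8 UMIs.

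Other classes of the lineage had no such separation of the libraries. Newly forming OLs had 5, 4, 5 and 1 Ndst4 UMIs, or 16.5, 15.9, 40.2 and 3.62 CPM. OPCs had 23.1, 22.7, 23.6 and 16.6 CPM. LS neurons, at 110.4 to 117 CPM, were level across the libraries.

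Neuronal RNA was also present in OL nuclei and differed between libraries. The summed level of 5 neuron markers (Snap25, Syt1, Rbfox3, Celf4 and Grin1) in OLs was 1723, 1729, 2499 and 856 CPM, none of the 5 being at 0, against 5591 to 5968 CPM in LS neurons. Ndst4 per 1000 neuron-marker UMIs was 21.2, 26.0, 80.2 and 546 in OLs and 18.9, 20.5, 19.7 and 19.1 in LS neurons. In each library the OL ratio was above that of LS neurons, least so in C57J. The same ratio was 12.6 to 18.5 in OPCs, 12.9 to 17.8 in microglia and 10.9 to 25.0 in astrocytes. What part neuronal RNA had in the Ndst4 levels of OLs was not tested. The 6 OL markers summed to 14029, 12458, 9995 and 16167 CPM in OLs.

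Among the other neuronal members, Hs3st2 and Hs3st4 kept a narrow ratio to the neuron markers in OLs. Hs3st2 in OLs was 34.7, 33.7, 59.0 and 18.8 CPM, yet per 1000 neuron-marker UMIs it was 20.1, 19.5, 23.6 and 21.9, and it was 44.5 to 48.0 in LS neurons. Hs3st4 had 31.0 to 34.6 per 1000 in OLs against 51.9 to 60.1 in LS neurons. The ratios of Hs3st5, 14.6 to 21.1, and of Ndst3, 8.49 to 17.8, spread more widely in OLs. Hs3st1, at 48.9, 55.2, 24.0 and 101 per 1000 in OLs, was far above its LS neuron ratio of 1.08 to 2.31. In OPCs the Hs3st5 ratio was 32.4, 37.9, 36.6 and 38.3, above its 19.9 to 22.9 in LS neurons. Levels of Ndst3, Hs3st2, Hs3st4 and Hs3st5 in OLs thus stand beside neuron markers in the same nuclei, whose part in them was not tested.

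**Figure D3:**
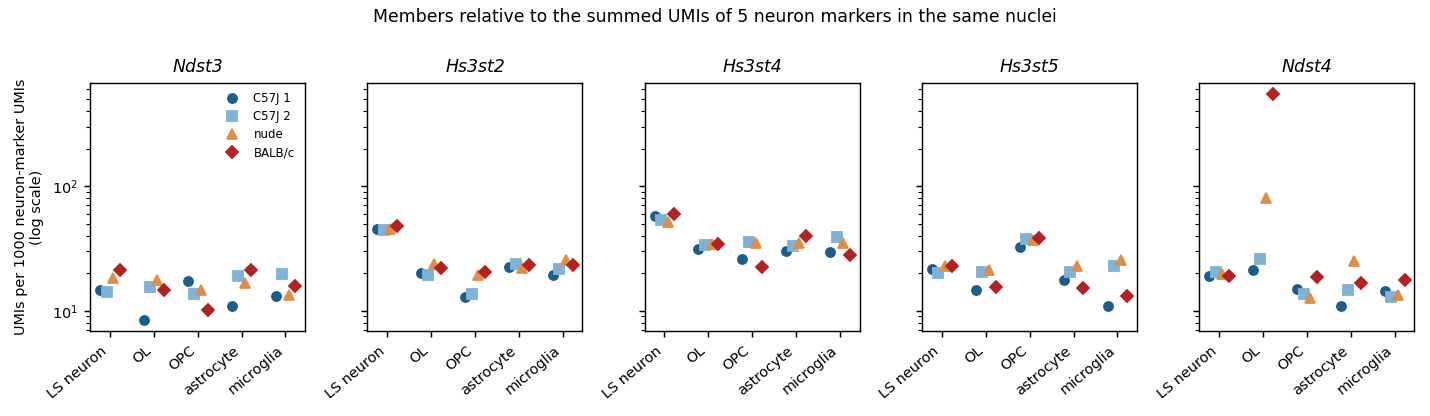
UMIs of Ndst3, Hs3st2, Hs3st4, Hs3st5 and Ndst4 (1 panel each) per 1000 UMIs of the 5 neuron markers in LS neurons, OLs, OPCs, astrocytes and microglia, 1 point per library, on a log axis. Ndst4 in OLs moves from 21.2 and 26.0 in C57J to 80.2 in nude and 546 in BALB/c, while Hs3st2 in OLs stays between 19.5 and 23.6.

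The annotated neighbours of Ndst4 did not share its pattern in OLs. Ugt8a, which makes the myelin lipid galactosylceramide and lies 136 kb away, had 707, 688, 523 and 963 CPM, with nude lowest. On the other side, 1700003H04Rik, 823 kb away, had no UMI in OLs of any library. Ndst3, the paralog on the same chromosome, had 14.6, 26.6, 44.4 and 12.6 CPM in OLs. Its own neighbours Prss12 and Tram1l1 had 1.68 to 2.23 and 10.1 to 15.6 CPM.

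For the remaining pairs of member and class, C57J was compared with nude and BALB/c together by the edgeR quasi-likelihood test on UMIs summed per library. Of the 96 pairs, 73 besides Ndst4 in OLs passed the filter on low counts, from 6 classes for Hs3st1 to 11 for Ndst1, Hs3st4 and Hs3st5, and none in newly forming OLs. A call needed an adjusted p under 0.05 with a log2 fold change beyond 0.5 in either direction. By edgeR 0 of the 73 pairs met this, where 0.469% of pairs over all genes and classes did. At an unadjusted p below 0.05 there were 11 of the 73 pairs, or 15.1%, beside 8.16% over all genes. DESeq2 and edgeR without the filter took in 95 pairs, among them pairs that had failed the filter on low counts. DESeq2 called 1, Ndst3 in LS neurons, beside 0.401% of all pairs and 2.46% of genes in LS neurons. Unfiltered edgeR called 7, beside 1.17% of all pairs. Of those 7, 1 was higher and 6 were lower in nude and BALB/c. Each library was pooled from mice of 1 strain. Nude and BALB/c, which differ in genotype, were taken as 1 group, and the C57J libraries differ in batch. The p-values rest on the spread within these pairs of libraries, and not on replicate libraries of nude or of BALB/c.

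Ndst3 in LS neurons came closest to the limit. It had 85.9, 79.7, 109 and 123 CPM, so that both libraries on the BALB/c background were above both C57J libraries, as were those of 18.9% of all genes tested there. The log2 fold change was 0.51 (SE 0.099, adjusted p = 0.0608 by edgeR), where 2.11% of all genes tested in LS neurons were called. The adjusted p ranged from 0.00170 to 0.298 over 10 alternatives, of which 2 called it.

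Single LS clusters gave the same direction for Ndst3. Nude and BALB/c were both above both C57J libraries in 11 of the 16 clusters and both below in 0, beside 16.5% of all gene and cluster pairs above and 20.7% below. The widest gap was in cluster 36, led by Cpa6 and Pappa, with 93.0, 53.0, 233 and 214 CPM. Cluster 2 had 42.8, 52.6, 119 and 143 CPM, cluster 23, led by Stac2, had 30.2, 34.3, 76.7 and 95.1 CPM, and cluster 30 had 23.4, 41.5, 80.3 and 80.2 CPM. In cluster 3, the LS cluster with the highest Ndst3 level, the values were 183, 182, 183 and 196 CPM. With the 16 clusters weighted equally, an alternative chosen after seeing the data, the levels were 79.0, 76.3, 108.7 and 115 CPM.

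For the other members, nude and BALB/c were both above in 7 clusters for Ndst1 and Hs3st1, in 6 for Hs3st2 and Hs3st5, in 5 for Ndst4, in 3 for Hs3st4 and in 1 for Ndst2. Both were below in 3 clusters each for Ndst2, Ndst4 and Hs3st4, in 1 each for Hs3st2 and Hs3st5 and in 0 for Ndst1 and Hs3st1. These counts are out of 16 clusters, and over all genes 16.5% of gene and cluster pairs had both above and 20.7% both below. Clusters of 1 library share its depth and its mice, and are not replicates.

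In Slc17a7 glutamatergic and striatal neurons the fitted Ndst3 fold changes were below 0 and were not called in the main edgeR fit. In each of these classes 2 of 10 alternatives called it. In Slc17a7 neurons the log2 fold change was -0.75 (SE 0.29, adjusted p = 0.552 by edgeR), with BALB/c lowest at 74.3 CPM. Both libraries were below both C57J libraries, as for 21.8% of all genes tested in this class. In striatal neurons the levels were 24.1, 74.6, 20.7 and 16.5 CPM, a log2 fold change of -1.31 (SE 0.49, adjusted p = 0.400 by edgeR), and C57J 2 alone was high. Without the striatal cluster 33, led by Gpr149, an alternative chosen after seeing the data, the levels were 25.2, 76.0, 21.1 and 17.2 CPM. That cluster held 7 of the 181 Ndst3 UMIs of C57J 2, so leaving it out could change little. Striatal cluster 8, led by Rarb, held 159 of them, and its levels were 22.8, 91.6, 21.2 and 21.2 CPM. Cluster 31, led by 6530403H02Rik, had 32.7, 27.0, 20.6 and 1.47 CPM, so that C57J 2 was not the highest library there.

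Hs3st4 also had fold changes of both signs. In Slc17a7 neurons it had 271, 283, 379 and 449 CPM, a log2 fold change of 0.63 (SE 0.16, adjusted p = 0.267 by edgeR), and with predicted doublets kept it was called, at 1.16 (adjusted p = 0.0114 by edgeR), where 0.656% of all pairs were called. In striatal neurons it had 222, 224, 126 and 160.4 CPM, a log2 fold change of -0.59 (SE 0.15, adjusted p = 0.173 by edgeR). Striatal cluster 8 had 275, 248, 116 and 146 CPM. Cluster 33 had 82.0, 82.1, 53.3 and 36.8 CPM, the nude and BALB/c values resting on 4 and 5 UMIs. Cluster 31 went the other way, at 157, 184, 185 and 240 CPM, with nude close to C57J 2. In Lhx6 GABAergic neurons it had 203, 142, 81.3 and 123 CPM and a log2 fold change of -0.72 (SE 0.25, adjusted p = 0.617 by edgeR). In neuroblasts it had 245, 215, 272 and 412 CPM and a log2 fold change of 0.63 (SE 0.28, adjusted p = 0.774 by edgeR). None passed the adjusted threshold in the main edgeR fit. Of 10 alternatives, 1 called Hs3st4 in Slc17a7 neurons, 1 in striatal neurons, 1 in neuroblasts and 0 in Lhx6 GABAergic neurons. The groups did not overlap in these classes, but of all genes tested 15.3% in Slc17a7 neurons and 15.2% in neuroblasts also had both libraries above, and 23.1% in striatal neurons and 19.4% in Lhx6 GABAergic neurons had both below.

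The remaining pairs at an unadjusted p below 0.05 were likewise below the threshold. Hs3st2 had 29.1, 51.0, 18.9 and 15.3 CPM in Slc17a7 neurons, a log2 fold change of -1.27 (adjusted p = 0.293 by edgeR), which turned to 0.43 when predicted doublets were kept. In Lhx6 GABAergic neurons its log2 fold change was -1.04 (adjusted p = 0.617 by edgeR). Hs3st1 in LS neurons rested on 6.39, 7.94, 8.61 and 13.4 CPM, a log2 fold change of 0.65 (adjusted p = 0.289 by edgeR). Ndst1 in neuroblasts, at 50.7, 39.6, 19.5 and 17.7 CPM, had a log2 fold change of -1.26 (adjusted p = 0.702 by edgeR). Ndst2, Ndst4 outside OLs and Hs3st5 had no pair at an unadjusted p below 0.05, with log2 fold changes from -0.93 to 0.60 over their tested classes.

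Single libraries decided several of these calls. Without C57J 1, which leaves batch 2, 5 pairs were called, beside 0.651% of pairs over all genes, and all 5 were lower: Ndst3 in Slc17a7 neurons (log2 fold change -0.93) and striatal neurons (-1.99), Hs3st2 in Slc17a7 neurons (-1.58) and Lhx6 GABAergic neurons (-1.40), and Hs3st5 in Slc17a7 neurons (-1.12). Without C57J 2 there were 0 by edgeR, beside 1.25%, and without BALB/c there was 1, Hs3st2 in Lhx6 GABAergic neurons (-1.82), beside 0.360%. Without nude, 7 pairs were called, beside 3.12%. Of these, 5 were lower in glia: Hs3st2 (-0.94) and Hs3st5 (-1.31) in astrocytes, Hs3st5 in OLs (-1.05), and Ndst1 (-1.59) and Hs3st4 (-1.24) in microglia. The summed neuron markers were 1605, 1725, 2043 and 776 CPM in astrocytes and 2457, 2717, 3081 and 1315 CPM in microglia, lowest in BALB/c as in OLs, and their part in these calls was not tested. The other 2 without nude were Ndst4 in Lhx6 GABAergic neurons (-0.96) and Hs3st4 in neuroblasts (0.94). The shares given beside these counts are over all classes. They were higher in Slc17a7 neurons without C57J 1, and in astrocytes, OLs and microglia without nude. In each of these fits 1 group is a single library that is assumed to vary like the other group.

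**Figure D4:**
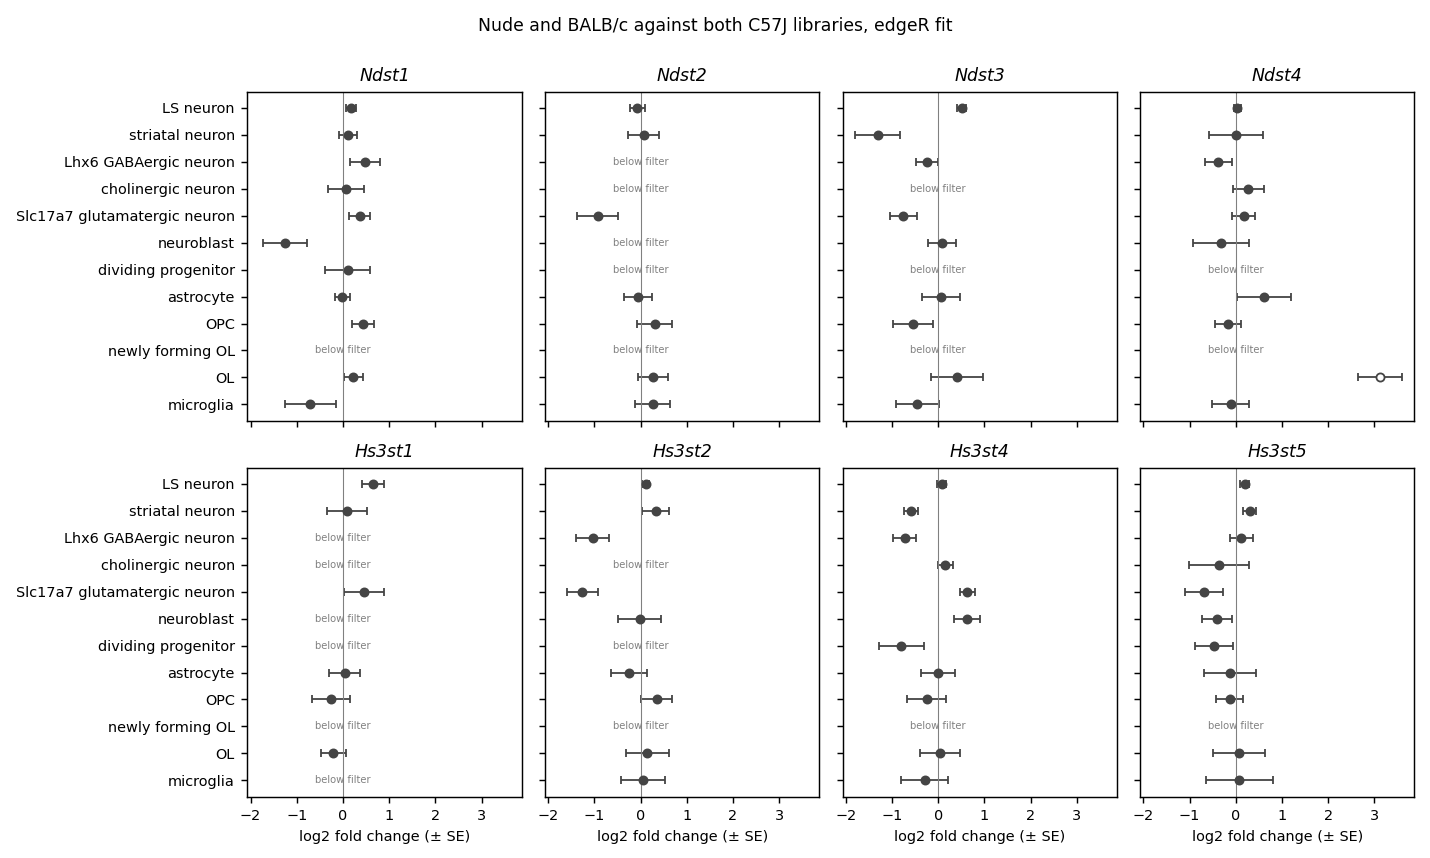
Fitted log2 fold change of the members, nude and BALB/c minus C57J, in each tested cell type, with bars of 1 SE, and pairs under the filter on low counts marked as such. Ndst4 in OLs at 3.12 is the open point, given without a test, and the other points range from -1.31 to 0.65 with none called.

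The rest of the pathway was checked from a list of 48 further genes, of which 45 could be tested in at least 1 class, giving 376 pairs. Of these 2 were called, both higher in nude and BALB/c, and 0 lower, where 0.469% of pairs over all genes and classes were called. The median log2 fold change was -0.07. Hs6st3, which adds sulfate at the 6-O position, rose in Lhx6 GABAergic neurons from 396 and 371 CPM to 834 and 833 CPM, a log2 fold change of 1.14 (SE 0.15, adjusted p = 0.0214 by edgeR), where 0.0367% of genes were called. Its adjusted p was 0.0667 with predicted doublets kept and 0.0505 at the finer clustering. In LS neurons Hs6st3 had 948, 1032, 1407 and 1312 CPM, a log2 fold change of 0.48 (adjusted p = 0.0208 by edgeR), just under the fold limit.

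Hpse2, an enzyme-inactive relative of heparanase, rose in LS neurons from 2.58 and 2.29 CPM to 5.49 and 6.14 CPM. Its log2 fold change was 1.28 (SE 0.21, adjusted p = 0.0360 by edgeR), where 2.11% of genes tested in LS neurons were called. Its adjusted p was 0.121 without nude and 0.287 without BALB/c. By group, 1 of the 61 pairs of the other sulfotransferases and epimerase was called, that of Hs6st3, and 1 of the 23 pairs of endosulfatases and heparanases, that of Hpse2. None was called among the 50 pairs of chain polymerases, 54 of linker synthesis, 30 of sulfate donor supply, 96 of core proteins and 62 of lysosomal breakdown. Median log2 fold changes of these groups ranged from -0.23 for lysosomal breakdown to 0.10 for chain polymerases.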

How the data were processed

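Nuclei of 4 lateral septum libraries (3 pooled male mice each) were sequenced by the 10x method. Per the submitters' processing notes, the authors used Cell Ranger 7.0.1 and the mm10 genome. The deposited values are raw UMI counts per gene and nucleus, not normalized. Whether intronic reads or strand entered the counting is not given in the sources used here, and mm10 is a C57BL/6J genome to which the BALB/c reads were also aligned. The files held between 12558 and 17025 barcodes and between 72912922 and 125998527 UMIs per library.

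Nuclei with 200 to 6000 genes, 300 to 50000 UMIs and under 2% mitochondrial UMIs were kept, and predicted doublets were removed at 0.8% per 1000 nuclei by comparison with simulated doublets. Nuclei were clustered with 3000 variable genes, 40 components, 6 neighbours per library and Leiden resolution 1 (Python 3.11.15, numpy 2.4.6, scipy 1.17.1, igraph 0.11.9, leidenalg 0.10.2), which gave 44 clusters. Left out of the clustering were 56 heparan sulfate pathway genes, 69 genes that differ by strain and 6 sex-linked genes. Clusters were named by marker lists with limits on the score of 0.4 (0.3 for LS neurons) set after seeing the scores. Cluster 21, counted with astrocytes, also carried ependymal markers. Finer OL clusters came from resolution 2.

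Levels are UMIs summed per library and class, per 1000000 UMIs. C57J libraries were compared with nude and BALB/c by the edgeR 4.0.16 quasi-likelihood test (R 4.3.3, TMM, filterByExpr, Benjamini-Hochberg over all genes of a class), with calls where the adjusted p was under 0.05 and the log2 fold change beyond 0.5 in either direction. The fits were also run on simulated counts with equal levels within each group. Those counts do not represent the differences of genotype or batch within the groups here. Alternatives were DESeq2 1.42.0, other size factors, no filter, doublets kept, resolution 2, thinning of nuclei to 1000 UMIs, the mean over nuclei and each library left out. Intervals are exact Poisson 95% intervals. Genes named are the 8 members, called genes of the pathway list, the 3 genes most like each member with at least 10 CPM in a class, overlapping and neighbouring genes, and markers. The members and lists were chosen with earlier results of these data known. Positions came from GENCODE vM21 and start windows from RefSeq.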

Additional observations from a re-analysis of the deposited data

Results flagged for a closer look

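Ndst3 and Hs3st4 had fitted fold changes of opposite sign in different neuron classes, with both libraries on the BALB/c background on one side of both C57J libraries in each. For Ndst3 the log2 fold change was 0.51 in LS neurons, -1.31 in striatal neurons and -0.75 in Slc17a7 glutamatergic neurons. For Hs3st4 it was 0.63 in neuroblasts and 0.63 in Slc17a7 glutamatergic neurons, and -0.72 in Lhx6 GABAergic neurons and -0.59 in striatal neurons. Striatal cluster 31 went the other way for Hs3st4, at 157 and 184 CPM in C57J against 185 and 240 CPM in nude and BALB/c. In striatal neurons Ndst3 was high in C57J 2 alone, at 24.1, 74.6, 20.7 and 16.5 CPM in C57J 1, C57J 2, nude and BALB/c. Of the 181 Ndst3 UMIs of C57J 2 there, 159 were in striatal cluster 8. The share of all genes tested that lay on the same side was 18.9% in LS neurons, 23.1% in striatal neurons and 21.8% (below) or 15.3% (above) in Slc17a7 glutamatergic neurons, 15.2% in neuroblasts and 19.4% in Lhx6 GABAergic neurons. None of these fold changes passed the adjusted threshold in the main edgeR fit, and the difference between classes itself was not tested.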

How the results depend on the processing

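Of the pairs of member and class, edgeR called 0 of 73 and DESeq2 1 of 95. The count was 7 of 95 without the filter and 1 of 83 with doublets kept. It also changed when a library was left out, most without nude. For the other pathway genes the count of 2 became 6 by DESeq2, 8 without the filter and 1 at resolution 2, and was 2 to 30 when a library was left out, 30 being without nude. Other size factors left both counts as they were. For the other pathway genes, DESeq2 and the fit without the filter each took in 547 pairs. At resolution 2 there were 374 pairs, and without nude 401. Over all genes and classes, DESeq2 called 0.401% of pairs and the fit without the filter 1.17%. Among the fits with a library left out, the share over all genes was also highest without nude, where 1 group is a single library. The log2 fold change of Ndst4 in OLs was 2.30 to 3.66 with a library left out, lowest without BALB/c, and 2.88 to 3.17 under the other alternatives. Hs3st2 in Slc17a7 glutamatergic neurons turned to 0.43 with doublets kept, and the cause was not tested. The class with the highest mean was kept for 7 of the 8 members after thinning, where Hs3st5 was highest in striatal neurons, and for all 8 with the mean over nuclei, doublets kept or resolution 2. No paired analysis was possible because only the C57J titles carry replicate numbers and the other groups do not. Nude and BALB/c have 1 library each, so that T-cell deficiency cannot be told apart from the spread between libraries, and batch 1 holds only C57J 1, and classes under about 100 nuclei per library give wide counting errors.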

Other observations

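In mural cells, the pericytes and smooth muscle cells of vessels, Ndst3 was picked out after its values were seen. It had 15 UMIs in 15 nuclei of C57J 1, 17 in 33 of C57J 2, 1 in 8 of nude and 1 in 21 of BALB/c. These were 538, 318, 69.1 and 18.8 CPM, with exact Poisson 95% intervals of 301 to 887, 186 to 509.9, 1.75 to 385 and 0.477 to 104.9. A UMI was found in 6, 10, 1 and 1 nuclei. The class had under 20 nuclei in some libraries and was not tested.

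A pair of close relatives of the members that are not among the 8 also stood out in astrocytes and were picked after their values were seen. Hs3st3a1 had 25.7, 20.3, 66.3 and 129 CPM in the order C57J 1, C57J 2, nude, BALB/c, and Hs3st3b1 2.37, 1.56, 9.33 and 15.9 CPM. Extl1, a glycosyltransferase of chain synthesis, had 13.5, 8.57, 2.33 and 2.04 CPM. The edgeR test with its filter called none of them in astrocytes. The share of all astrocyte genes whose libraries split in this way was not counted. In the classes where it was counted, 15.2% to 23.1% of genes had nude and BALB/c both on a given side.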
